A study of Mus musculus with 7 samples.

Results

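The open chromatin of 6 genes that carry hormone signals in the mammary epithelium was followed here: the steroid receptor genes Esr1, Pgr and Nr3c1, the prolactin receptor gene Prlr, and the genes Stat5a and Stat5b. Open chromatin was measured with ATAC-seq, in which a transposase inserts sequencing adapters where DNA is accessible. The 2 deposited peak lists, 1 for Dll1+ tumor cells and 1 for Dll1− tumor cells, were joined into 119215 union regions by merging intervals that overlapped or touched. Each region went to the protein-coding gene with the transcription start site (TSS) nearest to its midpoint, which gave 103 regions for the 6 genes. Nearness does not show that a region acts on the gene.

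The cells were from mammary tumors of mice with the MMTV-PyMT transgene, in which a viral promoter active in mammary epithelium drives the polyoma middle T oncoprotein, together with a Dll1-mCherry reporter on a bacterial artificial chromosome; the study's methods give a C57BL/6 background for all mice. Both groups share these alleles and differ in the reporter: Dll1+ cells were mCherry+ and Dll1− cells were mCherry−, so the groups are sorted fractions of the same kind of tumor. Cells with CD45, CD31 or Ter119 had been sorted out, and no treatment is given in the labels. Of 4 tumors, 3 gave a sample of each fraction and 1 gave a Dll1− sample only, and the deposited lists pool the 3 Dll1+ samples and the 4 Dll1− samples. With 1 pooled list per fraction, no difference below could be set against the spread between tumors, no p-value was computed, and pooled values carry no SD.

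Estrogen, progesterone and glucocorticoids enter cells and bind nuclear receptors, encoded by Esr1, Pgr and Nr3c1, which then act on DNA as transcription factors. Prolactin binds a receptor at the cell surface, the product of Prlr, which signals through the kinase Jak2 to the transcription factors Stat5a and Stat5b. In the mammary gland estrogen and progesterone drive duct growth and branching, and prolactin with glucocorticoids drives the formation of milk-producing cells.

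The sequences below lie at the summits, the points of most reads, of regions that the results turn on: the regions of Esr1, Pgr, Prlr and Stat5a with the largest differences in strength rank between the lists, the strongest Prlr region, and the strongest Prlr region listed only in Dll1+ cells. Each is 201 bases of the plus strand of GRCm38 centered on the summit. Capitals mark matches, on either strand, to the consensus letters of AP-1 (TGANTCA), of RBPJ (GTGGGAA), of TEAD factors (CATTCC), of RUNX factors (TGTGGT), of FOX factors (TGTTTAC), of STAT proteins (TTCNNNGAA), of GATA factors, where the letters searched were AGATAA, and of NF-kB, the estrogen response element (GGTCANNNTGACC) and the steroid response element of the progesterone, glucocorticoid and androgen receptors (GNACANNNTGTNC). In these windows no base was shared by matches of different motifs. A match is a description of the letters and not a bound site.
Esr1, 12.2 kb upstream of the TSS, higher ranked in Dll1− cells (chr10:4599712-4599912): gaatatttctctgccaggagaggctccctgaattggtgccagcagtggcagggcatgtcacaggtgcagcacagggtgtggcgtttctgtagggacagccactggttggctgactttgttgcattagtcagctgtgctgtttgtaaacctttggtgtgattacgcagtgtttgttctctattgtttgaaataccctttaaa
Esr1, 38.4 kb upstream of the TSS, higher ranked in Dll1+ cells (chr10:4573559-4573759): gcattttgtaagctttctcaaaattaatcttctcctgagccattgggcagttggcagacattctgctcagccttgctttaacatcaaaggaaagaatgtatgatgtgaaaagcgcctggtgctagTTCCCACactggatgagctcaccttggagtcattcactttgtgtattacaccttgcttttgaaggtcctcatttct
Pgr, 67.9 kb upstream of the TSS, higher ranked in Dll1+ cells (chr9:8832124-8832324): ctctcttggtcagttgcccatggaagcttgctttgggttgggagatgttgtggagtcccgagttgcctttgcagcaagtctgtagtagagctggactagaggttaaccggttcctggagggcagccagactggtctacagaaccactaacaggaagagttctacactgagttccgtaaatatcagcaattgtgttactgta
Prlr, 24.5 kb past the internal TSS, higher ranked in Dll1− cells (chr15:10248326-10248526): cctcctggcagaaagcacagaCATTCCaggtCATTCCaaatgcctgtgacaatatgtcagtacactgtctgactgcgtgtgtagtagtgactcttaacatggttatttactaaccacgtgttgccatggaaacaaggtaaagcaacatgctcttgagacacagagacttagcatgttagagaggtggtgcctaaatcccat
Prlr, 13.3 kb before the internal TSS, higher ranked in Dll1+ cells (chr15:10210493-10210693): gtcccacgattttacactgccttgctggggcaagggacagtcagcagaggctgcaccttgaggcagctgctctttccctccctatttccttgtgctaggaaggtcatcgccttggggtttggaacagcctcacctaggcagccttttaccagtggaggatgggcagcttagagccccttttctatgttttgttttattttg
Prlr, 14.7 kb past the first TSS, strongest in both lists (chr15:10192353-10192553): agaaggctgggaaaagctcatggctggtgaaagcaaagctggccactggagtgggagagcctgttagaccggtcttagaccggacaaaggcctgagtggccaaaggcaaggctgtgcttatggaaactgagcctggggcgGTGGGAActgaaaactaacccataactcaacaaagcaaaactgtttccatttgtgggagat
Prlr, 3.58 kb past the internal TSS, listed only in Dll1+ cells (chr15:10227459-10227659): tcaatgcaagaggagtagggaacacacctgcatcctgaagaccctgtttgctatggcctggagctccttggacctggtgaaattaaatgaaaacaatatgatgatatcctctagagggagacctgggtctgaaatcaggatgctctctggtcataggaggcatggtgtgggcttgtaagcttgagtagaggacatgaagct
Stat5a, 10.5 kb past the third TSS, higher ranked in Dll1− cells (chr11:100870697-100870897): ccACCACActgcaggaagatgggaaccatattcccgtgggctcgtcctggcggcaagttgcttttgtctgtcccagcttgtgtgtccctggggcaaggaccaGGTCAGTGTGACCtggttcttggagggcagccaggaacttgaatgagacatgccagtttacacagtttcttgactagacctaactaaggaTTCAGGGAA

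The lists differ in depth, which bears on every count. The Dll1+ list held 132872 rows (summits) in 91047 regions and the Dll1− list 148923 rows in 110382 regions. Read numbers at the summits, recovered from the deposited fold enrichment and −log10 p-value of each row, gave a genome-wide background of 3.74 reads for Dll1+ cells and 7.20 for Dll1− cells, or 1.93 times as many. A region absent from a list is one that was not called at that depth. Of 6 epithelial marker genes, 4 (Epcam, Krt8, Krt18 and Cdh1) had a region within 1000 bp of a TSS in both lists, and the basal keratin genes Krt5 and Krt14 had one in neither list. Such a region was listed for 0 of 5 immune, 1 of 4 endothelial, 1 of 2 erythroid and 1 of 5 fibroblast marker genes in the Dll1+ list, and for 1, 1, 1 and 2 of them in the Dll1− list; the share of such cells in each sort and its part in the results below were not tested.

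Of the 103 regions, 76 were in both lists, 10 were in the Dll1+ list only and 17 were in the Dll1− list only. As shares these were 73.8% (Wilson 95% interval 64.5 to 81.3), 9.71% (5.36 to 17.0) and 16.5% (10.6 to 24.9). Over all union regions the shares were 66.4%, 9.01% and 24.6%, so the 6 genes together stood near the background, with a slightly lower Dll1− only share. These intervals cover counting error only: reads were counted without molecular identifiers, and neighboring regions are not independent. All 6 genes had a region within 1000 bp of a TSS in both lists, which was true of 55.9% of the 21924 protein-coding genes.

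**Figure D1:**
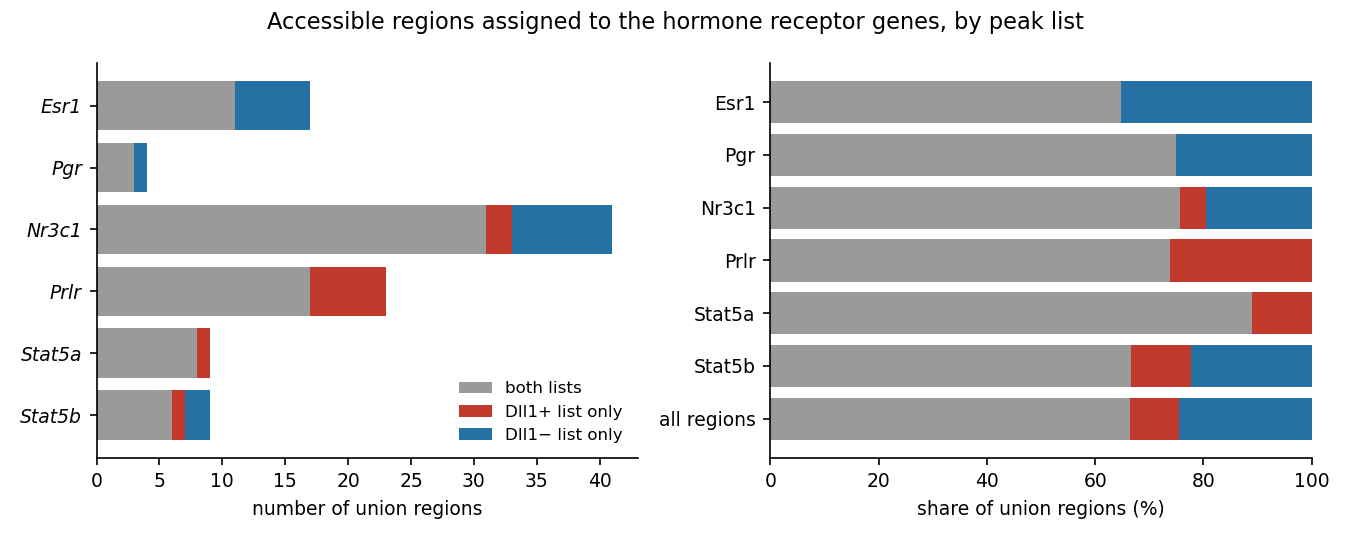
Numbers of union regions assigned to each gene (left, count axis from 0) and their shares (right, percent of the gene's regions, with all 119215 union regions as the lowest bar). Gray is both lists, red the Dll1+ list only and blue the Dll1− list only: the 6 list-only regions of Esr1 are all blue and the 6 of Prlr are all red.

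The genes did not split alike. The list-only regions of Esr1 (6 of 17 regions) were all in the Dll1− list, and those of Prlr (6 of 23) were all in the Dll1+ list. Nr3c1 had 8 Dll1− only and 2 Dll1+ only regions among 41, Pgr had 1 Dll1− only among 4, Stat5a had 1 Dll1+ only among 9, and Stat5b had 2 Dll1− only and 1 Dll1+ only among 9. Among the 1980 protein-coding genes with at least 6 list-only regions, a minimum set after the Prlr and Esr1 counts were seen, all such regions were in the Dll1+ list for 0.202% of genes (4 genes, Prlr among them) and in the Dll1− list for 13.1% (259 genes, Esr1 among them). At this minimum the Esr1 pattern was thus one that many genes showed, and the Prlr pattern one that few showed. Since the minimum equals the count of both genes, these shares are a description. With only the 5′ end of each gene as its start, Prlr had 5 Dll1+ only and 0 Dll1− only regions and fell below the minimum. By a looser measure, an excess of at least 3 Dll1+ only regions was seen in 3.69% of the 3715 genes with at least 10 regions.

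Strength rank was compared for the 76 shared regions. The fold enrichment of the strongest row of a region was turned into its percentile among all rows of the same list, and a region was called ranked higher in a list where the percentiles differed by at least 10 points. Of the 76, 15 (19.7%) ranked higher in Dll1+ cells and 21 (27.6%) in Dll1− cells, while 40 differed by less than 10 points. Over all shared union regions these shares were 15.2% and 25.1%. The median difference, Dll1+ minus Dll1−, was -2.38 points for the 6 genes and -1.67 points for all shared regions.

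**Figure D2:**
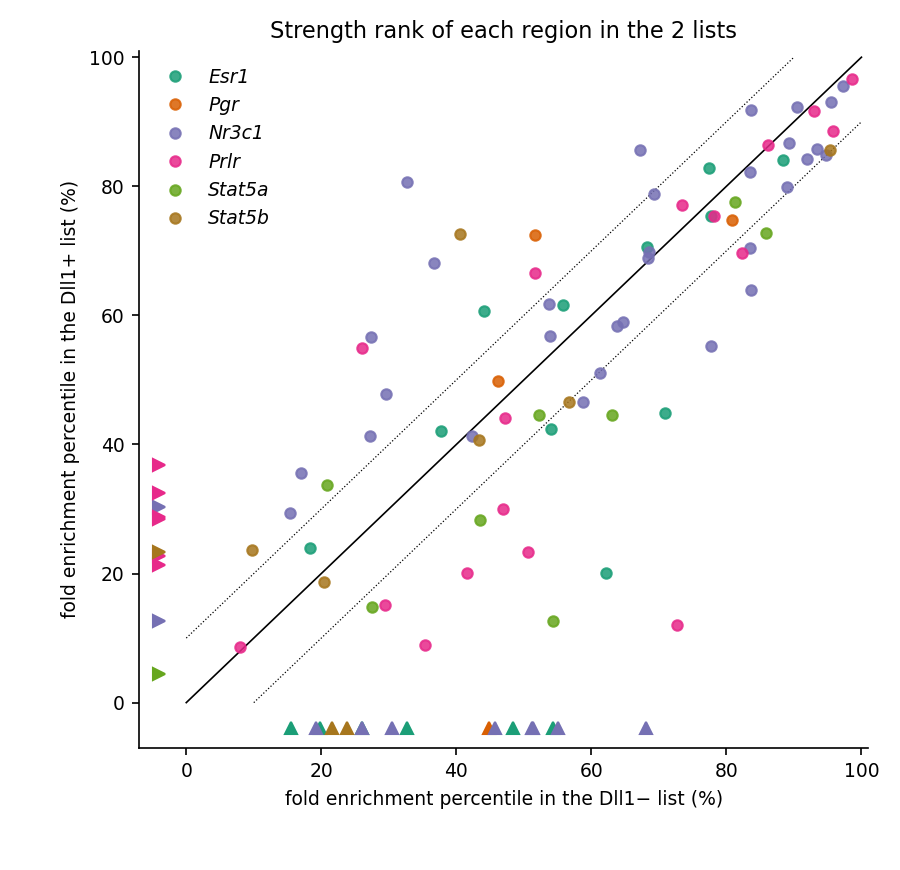
Percentile of fold enrichment of each region in the Dll1− list (x axis, percent) and in the Dll1+ list (y axis, percent), colored by gene. Circles are the 76 shared regions, the solid line marks equal rank and dotted lines a difference of 10 points; triangles at the left edge are the 10 Dll1+ only regions and those at the lower edge the 17 Dll1− only regions.

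Esr1, which encodes estrogen receptor α, spans chr10:4611593-5005614 on the plus strand. It had open promoters in both lists, its regions of highest rank were shared, and the lists differed mainly in regions of low to middle rank upstream and in the gene. The annotation holds 3 start sites, a pair 32 bp apart and an internal one 98.1 kb further on. At the first pair, the region over the start (chr10:4611828-4612207, promoter) had a fold enrichment of 3.66 in Dll1+ and 3.01 in Dll1− cells, at percentiles 23.9 and 18.4. The region at the internal start (chr10:4709870-4710382, promoter) had folds of 4.93 and 5.36, at percentiles 42.4 and 54.0. These promoters were weak next to the strongest Esr1 region, in an intron 9.26 kb past the nearest start site (chr10:4620719-4621848), with folds of 11.4 and 12.3 and percentiles 84.0 and 88.4.

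The shared Esr1 region with the largest rank difference lay 12.2 kb upstream, between genes (chr10:4599628-4599957). It had a fold of 3.40 and percentile 20.0 in the Dll1+ list, from 17 reads, and a fold of 6.23 and percentile 62.1 in the Dll1− list, from 65 reads. At the Dll1+ depth those 65 reads correspond to 33.7. The read ratio, Dll1+ over Dll1− and divided by the ratio of genome backgrounds, was 0.50 (exact 95% interval 0.28 to 0.87, counting error only), and its median over all shared regions was 1.18. The reverse was seen 38.4 kb upstream (chr10:4573268-4573860, intergenic), with folds of 6.75 and 4.51, a rank difference of 16.7 points and a read ratio of 1.66 (0.99 to 2.76), an interval that includes the median of 1.18. Beyond these, 2 further regions of the 11 differed by at least 10 points, both higher in Dll1− cells: the internal promoter, and a coding exon 2.35 kb past it (chr10:4712083-4712919, percentiles 44.8 and 70.9).

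The 6 Esr1 regions listed only in Dll1− cells were of low to middle strength, with folds of 2.84 to 5.37 and percentiles 15.5 to 54.3. The strongest lay 50.9 kb upstream, in a coding exon of the neighboring gene Ccdc170 (chr10:4560833-4561303). The others lay 29.4 kb, 13.6 kb and 0.45 kb upstream and, in introns, 6.16 kb and 65.6 kb past a start site. Scaled to the Dll1+ depth, their expected −log10 p ran from 5.05 to 11.5, above 4.32, the 5th percentile of the Dll1+ rows, in 6 of 6. Of all Dll1− only regions 83.6% were at or above 4.32, and with the median −log10 p of the Dll1+ rows as the limit the Esr1 count was 0. Dll1+ only regions numbered 0 of 17, which allows a share of up to 17.6% if 3 counts of the total are taken as the limit that a count of 0 allows. With only rows at or above the median fold of their list, Esr1 had 1 Dll1+ only and 4 Dll1− only regions. That filter also turns a shared region into a list-only one where 1 list's rows fall below the median. The 1 Dll1+ only region was of this kind, the shared region 38.4 kb upstream. Applied to list-only regions alone, the same minimum left 0 Dll1+ only and 1 Dll1− only. With only the 5′ end of each gene as its start, Esr1 had 1 and 6, so its list-only regions were then not all in the Dll1− list.

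**Figure D3:**
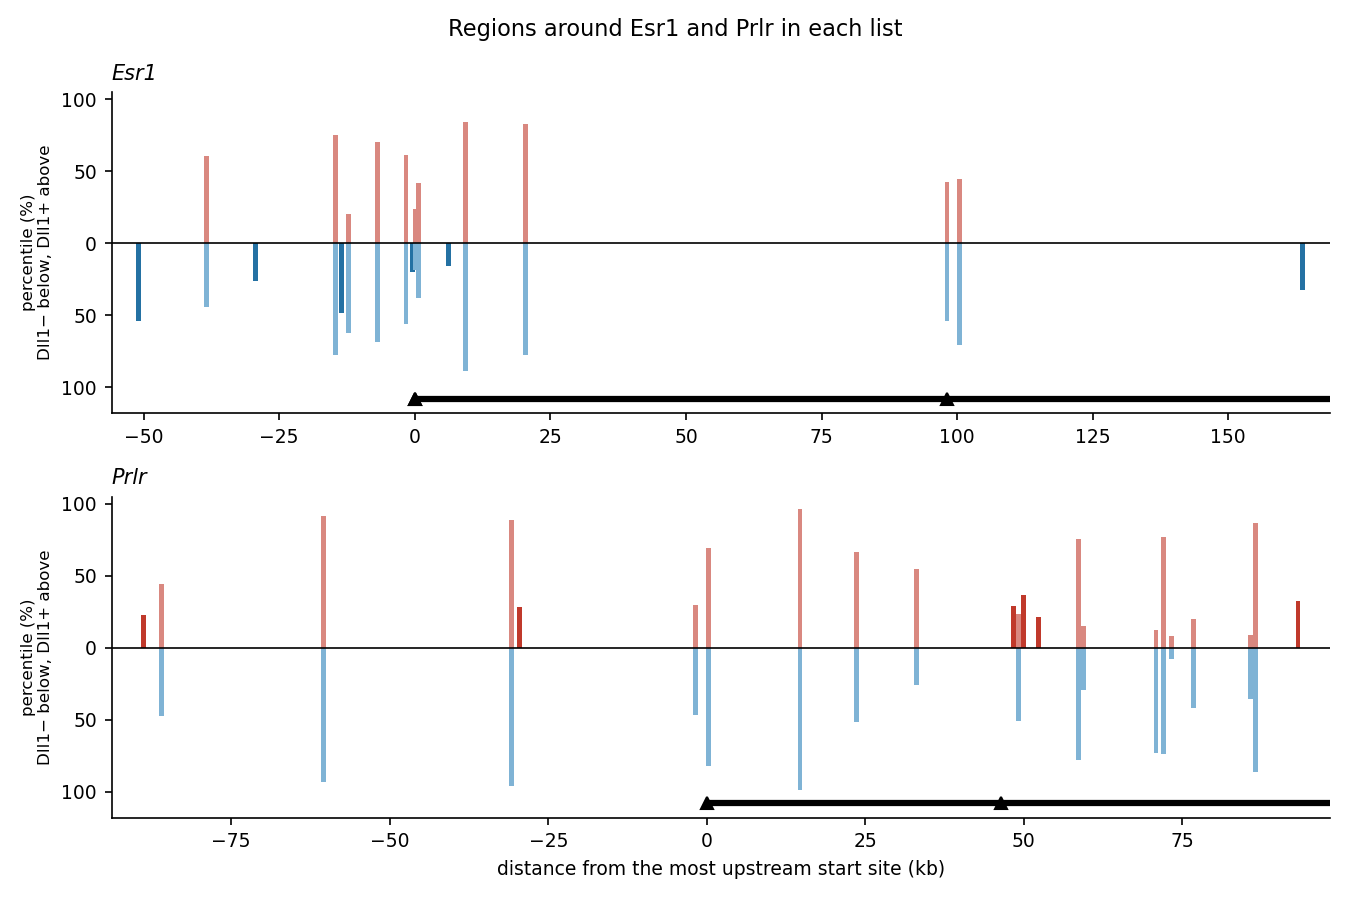
Regions assigned to Esr1 (top) and Prlr (bottom) by distance from the first start site (x axis, kb), with the fold enrichment percentile in the Dll1+ list above the line and in the Dll1− list below it (percent). Pale bars are shared regions and dark bars list-only ones (blue for Esr1, red for Prlr); the black bar is the gene, cut at the axis limit, and triangles are start sites. Bars are wider than the regions.

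Pgr, which encodes the progesterone receptor, spans chr9:8899833-8968611 on the plus strand and had 4 regions, of which only 1 lay in or at the gene. That region, 589 bp past a start site and with its midpoint in coding sequence (chr9:8900058-8902057), had folds of 5.57 and 4.64 and percentiles 49.9 in Dll1+ and 46.1 in Dll1− cells. The region 67.9 kb upstream (chr9:8831368-8832455, intergenic) ranked higher in Dll1+ cells, with folds of 8.64 and 5.12, percentiles 72.4 and 51.6, and 64 and 41 reads. Its read ratio was 3.01 (2.00 to 4.56), but the strongest summits of the lists were 668 bp apart, so the values describe different points of a broad region. The 2 other regions lay 169 and 164 kb upstream, in an intron of a non-coding gene: the first was shared (percentiles 74.8 and 80.8) and the second was in the Dll1− list only, with a fold of 4.57. With 4 regions, Pgr allows no statement on its shares.

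Nr3c1, which encodes the glucocorticoid receptor, is on the minus strand and had the most regions, 41, more than 98.8% of the 17389 protein-coding genes with any region. Most were remote: 34 lay over 50 kb and 25 over 100 kb from a start site, and 18 had their midpoint inside the neighboring gene Arhgap26 and 6 inside Nr3c1. The promoter was a broad region 2643 bp long with 9 summits in each list, with folds of 8.16 and 7.16 and percentiles 69.9 in Dll1+ and 68.6 in Dll1− cells, taken at strongest summits 1676 bp apart. The strongest region, in an intron of Nr3c1 3.39 kb past the nearest start site, had folds of 17.0 and 18.4 and percentiles 95.5 and 97.2. The strongest summits of the promoter region, at their different points, and those of this intron thus differed by less than 10 points in rank.

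The 4 Nr3c1 regions that differed by at least 20 points all lay over 100 kb from a start site. Inside the gene, an intronic region 36.9 kb past the nearest start site differed by -12.3 points (percentiles 46.6 and 58.8), and another at 41.1 kb was in the Dll1− list only. A region 145 kb downstream of the start, inside Arhgap26, had a fold of 10.5 in Dll1+ cells (57 reads, percentile 80.7) and 3.78 in Dll1− cells (30 reads, percentile 32.6), a rank difference of 48.0 points and a read ratio of 3.66 (2.31 to 5.90). It held more reads in the shallower list. Its neighbor 146 kb downstream differed in the same direction by 29.2 points, and so did a region on the other side of the gene, 134 kb upstream, by 31.4 points (percentiles 68.1 and 36.7, read ratio 2.23, interval 1.35 to 3.69). The opposite was seen 210.5 kb downstream (percentiles 55.2 and 77.8, read ratio 0.75, interval 0.47 to 1.17). Of the 31 shared regions, 8 (25.8%) ranked higher in Dll1+ cells and 5 (16.1%) in Dll1− cells, with a median difference of -0.97 points. Over all shared regions these were 15.2%, 25.1% and -1.67 points. The Nr3c1 balance depended on the ranking, the selection and the cut. Percentiles among merged regions gave 7 and 9, and percentiles by −log10 p gave 7 and 7. Rows at or above the median fold gave 1 and 4, regions within 50 kb 0 and 1, and a difference of 20 points 3 and 1. Over the alternatives the Nr3c1 median ran from -2.83 to 0.47.

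Of the 8 Nr3c1 regions listed only in Dll1− cells, the strongest lay 236 kb downstream inside Arhgap26, with a fold of 7.07 at percentile 68.1, the highest of any list-only region of the 6 genes. Another, 69.7 kb upstream, reached a −log10 p of 32.6 from 81 reads. Scaled to the Dll1+ depth the 8 regions would have a −log10 p of 4.11 to 17.8, at or above 4.32 in 7. Of all Dll1− only regions 83.6% were at or above 4.32, and with the median −log10 p of the Dll1+ rows as the limit the Nr3c1 count was 0. The 2 Dll1+ only regions had folds of 2.95 and 4.04.

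Prlr, which encodes the prolactin receptor, spans chr15:10177238-10349180 on the plus strand and had 23 regions, 17 of them with their midpoint in the gene. Its strong regions were open in both lists, with weak regions listed in Dll1+ cells only and several shared regions ranked higher in Dll1− cells. The region over the first start site (chr15:10177248-10178651, midpoint in an intron 294 bp past it) had folds of 8.09 and 10.1 and percentiles 69.6 in Dll1+ and 82.3 in Dll1− cells. The intronic region 14.7 kb past the first start (chr15:10191963-10192737) had folds of 18.0 and 20.5 and percentiles 96.6 and 98.6, from 327 and 468 reads, the highest ranks of all 103 regions. Upstream, the regions 60.5 and 30.7 kb before the start had percentiles of 91.6 and 88.6 in Dll1+ and 92.9 and 95.8 in Dll1− cells.

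The largest rank difference of the 6 genes was at an intronic Prlr region 24.5 kb past the internal start site (chr15:10248233-10248728). Its fold was 2.94 in Dll1+ cells, at percentile 12.1, and 7.86 in Dll1− cells, at percentile 72.7, a difference of -60.6 points. It held 30 reads in the Dll1+ list against 116 in the Dll1− list, which correspond to 60.2 at the Dll1+ depth, a read ratio of 0.50 (0.32 to 0.75). The next Prlr region downstream (chr15:10249380-10249915) did not follow it, with folds of 9.60 and 7.98 and percentiles 77.2 and 73.4. The sequence at the summit of the first of these regions, given above, holds a pair of TEAD consensus matches. In the opposite direction, an intronic region 13.3 kb before the internal start (chr15:10210317-10211093) had folds of 6.12 and 3.42, a difference of 28.8 points and a read ratio of 2.14 (1.23 to 3.74). Of the 17 shared Prlr regions, 2 (11.8%) ranked higher in Dll1+ cells and 7 (41.2%) in Dll1− cells, and the median difference was -3.23 points. Over all shared regions the shares were 15.2% and 25.1% and the median -1.67 points. At a difference of 20 points the Prlr counts were 1 and 4, and with rows at or above the median fold 1 and 1. The Prlr median ranged from -7.17 (within 50 kb) to -1.66 (rows at or above the median fold) over the alternatives.

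The 6 Dll1+ only regions of Prlr were 26.1% of its regions (Wilson 95% interval 12.5 to 46.5), and Dll1− only regions were 0 of 23, which by the same limit of 3 counts allows a share of up to 13.0%. Over all union regions these shares were 9.01% and 24.6%. The 6 Dll1+ only regions had folds of 3.51 to 4.51 from 16 to 26 reads, at percentiles 21.3 to 36.8, so each was below the median of its own list. They formed no single block: 2 lay 88.9 and 29.6 kb upstream of the gene, 3 lay within 4.40 kb just past the internal start site (chr15:10225710-10230110), where 1 shared region stood among them, and 1 lay 46.9 kb past it. The strongest was 3.58 kb past the internal start (chr15:10227452-10227680), and its printed summit sequence held no match to the consensus letters searched. When only rows at or above the median fold of their list were kept, Prlr had 1 Dll1+ only and 2 Dll1− only regions. All of these were in both deposited lists and became list-only because 1 list's rows fell below the median. The same minimum on list-only regions alone left 0 Dll1+ only and 0 Dll1− only, so the one-sided count rested on weak regions.

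**Figure D4:**
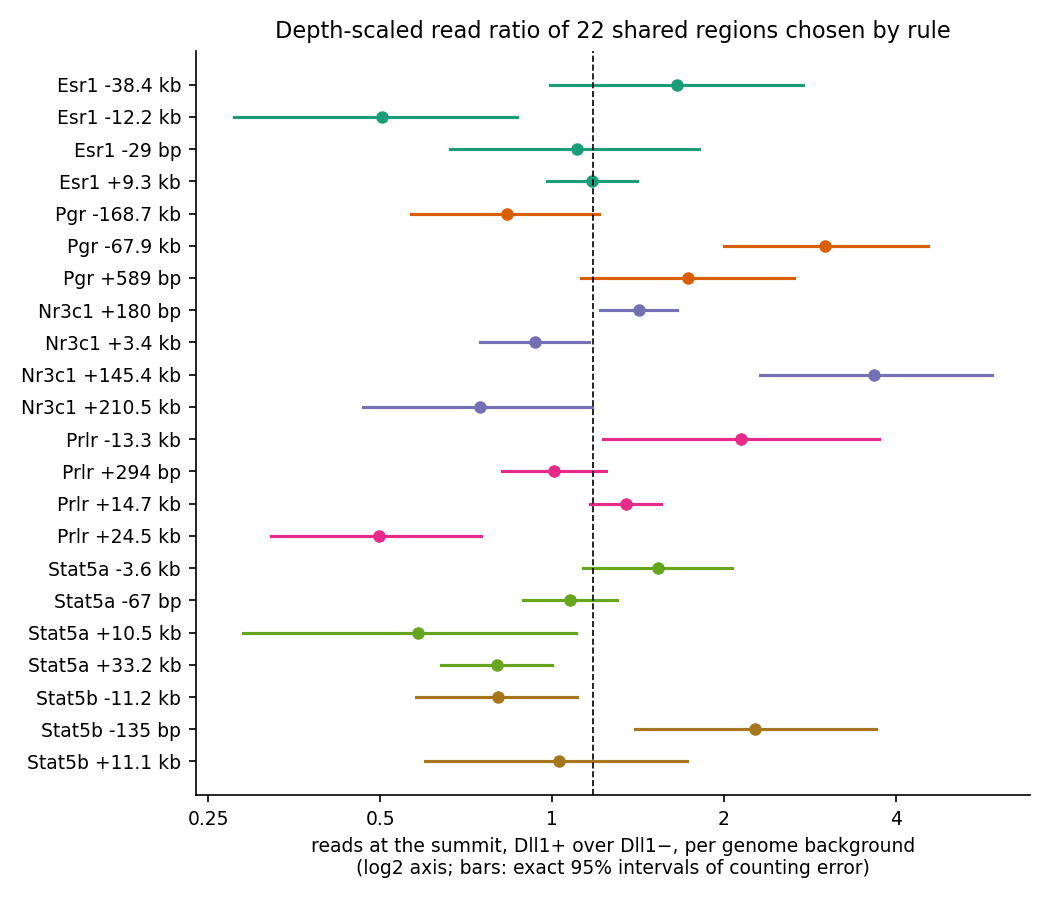
Reads at the strongest summit in the Dll1+ over the Dll1− list, divided by the ratio of genome backgrounds (x axis, log2 scale), for 22 shared regions, each by its gene and signed distance from the nearest start site. Points are ratios, bars exact 95% intervals of counting error, and the dashed line the median of all shared regions, 1.18. The regions are, for each gene, the strongest at a start site, the strongest shared and those with the largest rank differences, so intervals away from the line follow in part from that choice and their number is a description: 7 lie wholly below the line (the Prlr region at +24.5 kb and the Esr1 region at -12.2 kb among them), 5 wholly above it (the Nr3c1 region at +145.4 kb and the Pgr region at -67.9 kb among them), and 10 include it.

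Stat5a and Stat5b, whose products carry the prolactin signal to the nucleus, are neighbors on chromosome 11 that start on opposite strands, Stat5a at chr11:100859351-100885169 and Stat5b at chr11:100780731-100850724. Stat5a had 9 regions, of which 5 had their midpoint inside the adjacent gene Stat3 and 2 inside Stat5a. Its strongest promoter region (chr11:100860064-100860770) had folds of 9.71 and 9.77 and percentiles 77.5 in Dll1+ and 81.2 in Dll1− cells. The promoter region over the first start site (chr11:100859005-100859675) differed more, with folds of 5.07 and 6.35, percentiles 44.6 and 63.1 and a read ratio of 0.88 (0.68 to 1.13). Of the 8 shared regions, 7 had a lower percentile in the Dll1+ list and 5 were lower by at least 10 points (62.5%), with a median difference of -12.9 points, against 25.1% and -1.67 points over all shared regions. With only rows at or above the median fold, 2 shared Stat5a regions were left, with a median of -8.41 points, and 1 of them ranked higher in Dll1− cells. At a difference of 20 points, 1 of the 8 regions did. Of the 5 lower by at least 10 points, 3 lay inside Stat3.

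The largest Stat5a difference was in an intron 10.5 kb past the third start site (chr11:100870304-100871606), with folds of 2.95 and 5.37 and percentiles 12.7 and 54.3. It rested on few reads, 13 for Dll1+ and 43 for Dll1− cells, and the read ratio was 0.58 (0.29 to 1.10), with strongest summits 202 bp apart. Its summit sequence, given above, holds a full estrogen response element, GGTCAGTGTGACC, starting 2 bp from the summit, and a STAT match 92 bp from it. The 1 Dll1+ only region of Stat5a, inside Stat3, was among the weakest rows, with a fold of 2.33 at percentile 4.38.

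Stat5b had 9 regions, 8 with their midpoint in the gene. At the main start site, the region over it (chr11:100849997-100850827) and the one upstream (chr11:100850892-100851484) had percentiles of 40.7 and 18.6 in Dll1+ and 43.4 and 20.4 in Dll1− cells. At the internal start site, in contrast, the promoter region (chr11:100822371-100822956) had a fold of 8.65 in Dll1+ cells, at percentile 72.6 from 40 reads, and of 4.27 in Dll1− cells, at percentile 40.5 from 34 reads. The rank difference was 32.1 points and the read ratio 2.27 (1.40 to 3.69). The strongest Stat5b region (chr11:100833465-100833891, intron) had folds of 12.0 and 16.5 and percentiles 85.7 and 95.4. The list-only regions were weak, with a fold of 3.61 for the Dll1+ only region and 3.17 and 3.29 for the 2 Dll1− only regions.

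For the 17 Dll1− only regions the lower depth of the Dll1+ list was taken into account. Their reads and backgrounds were scaled to the Dll1+ genome background and the Poisson −log10 p recomputed. The expected value was at or above 4.32 in 16 of 17, with a median of 8.09, and the exception was an Nr3c1 region at 4.11. The count depends on the limit: with the median −log10 p of the Dll1+ rows in its place, chosen after seeing the data, it was 0 of 17, so 0 for Esr1 and for Nr3c1 too. Over all Dll1− only regions 83.6% were at or above 4.32. This is an expected value with no allowance for chance, and 4.32 is a percentile of listed rows, since the thresholds of the authors' calling are not given in the sources used here. With both lists at an equal genome background and held to 4.32, the 6 genes had 72 shared, 14 Dll1+ only and 16 Dll1− only regions. Over all regions at that setting the shares were 67.8%, 10.4% and 21.8%. Prlr then had 7 Dll1+ only and 0 Dll1− only, and Esr1 0 and 6. Only the background was matched: the median scaled read ratio of all shared regions was 1.18.

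**Figure D5:**
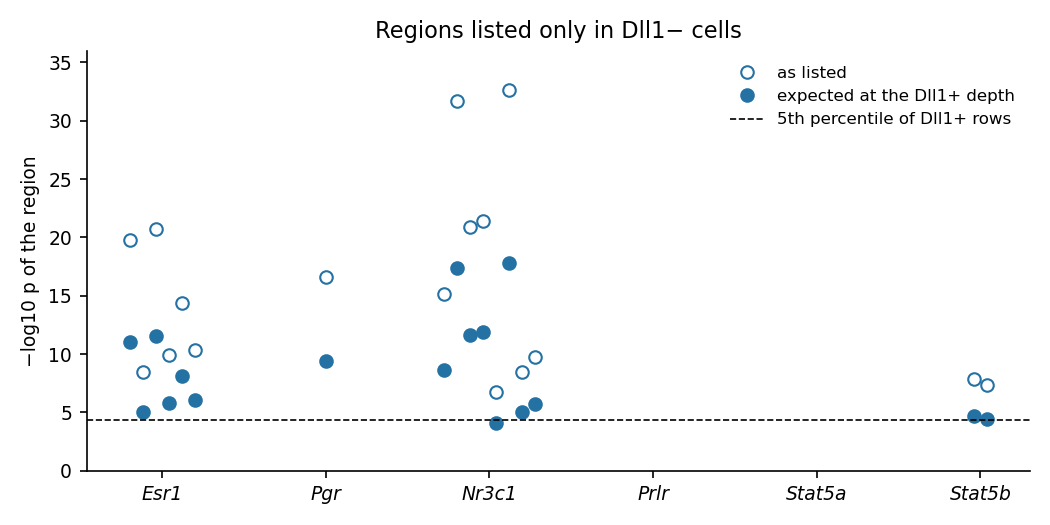
The −log10 p of the 17 regions listed only in Dll1− cells, by gene (x axis). Open circles are the values as listed, filled circles those expected at the Dll1+ depth, and the dashed line is the 5th percentile of the Dll1+ rows, 4.32; 16 of 17 filled circles lie on or above it, and Prlr and Stat5a have no such region.

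Width and GC content, which the choice of regions did not use, were close to those of the rest. Median width was 496 bp (445 bp over all regions) and median GC content at the summit 49.3% (50.2%). Midpoints were in introns for 56 (54.4%, against 48.4% over all), between genes for 29 (28.2% against 33.2%) and in promoters for 9 (8.74% against 11.7%). The distance to the nearest start site, on which the assignment rests, had a median of 36.9 kb against 23.1 kb over all regions, and of 12.7 kb without Nr3c1.

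The consensus letters were read in the 201 bases around the strongest summit of each region. AP-1, the letters bound by Fos and Jun proteins, matched in 23 of 103 (22.3%, against 21.7% of all regions), TEAD in 16 (15.5% against 14.8%), STAT in 7 (6.80% against 6.91%) and RBPJ, the letters of the DNA-binding partner of Notch, in 5 (4.85% against 4.30%). RUNX matched in 11 (10.7% against 15.3%), GATA in 2 (1.94% against 5.49%) and NF-kB in 2 (1.94% against 3.02%). FOX matched in 7 (6.80% against 3.73%), all 7 assigned to Nr3c1. The 5 RBPJ matches were at the Esr1 region 38.4 kb upstream, at the strongest Prlr region, at a Stat5b intron and at 2 Stat5a regions inside Stat3.

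The hormone response elements themselves were scarce. The full estrogen response element matched in 1 of 103 regions, that of Stat5a, and in 43 of all 119215 (0.0361%). The steroid response element matched in 0 of 103 and in 706 of all regions (0.592%). AP-1 matched in 6 of the 17 Dll1− only regions (35.3%) and in 1 of the 10 Dll1+ only regions; over all regions these shares were 35.5% and 6.92%.

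Counted in the same way, 51 other genes of the hormone pathways had 989 regions, of which 672 were shared, 96 (9.71%) Dll1+ only and 221 (22.3%) Dll1− only, against 9.01% and 24.6% over all union regions. Of the 51 genes, 36 had more Dll1− only than Dll1+ only regions, 4 had more Dll1+ only, and 11 had equal numbers. An excess of at least 3 was seen toward Dll1− for 24 genes and toward Dll1+ for 0 of them. Such counts rise with the number of regions, so they were also set beside the 3715 protein-coding genes with at least 10 regions, a minimum set after the counts were seen. Of these genes 76.9% had more Dll1− only and 13.2% more Dll1+ only regions, and of the 38 pathway genes with as many regions 29 (76.3%) and 3 (7.89%) did. An excess of at least 3 was toward Dll1− in 49.4% and toward Dll1+ in 3.69% of all such genes, and in 23 (60.5%) and 0 of the 38. A lean toward Dll1− was thus present in the lists as a whole. The genes named next are those with an excess of at least 3, all toward Dll1−, and do not stand for the balanced ones. Jak2, the kinase on the prolactin receptor, had 0 Dll1+ only and 3 Dll1− only regions, and Socs3, a feedback inhibitor of cytokine receptors, had 1 and 5. Among related receptors, Esr2 (estrogen receptor β) had 1 and 4, Ghr (growth hormone receptor) 4 and 7, Nr3c2 (mineralocorticoid receptor) 6 and 12, Rara 2 and 6, and Rarb 3 and 13. The last pair encode retinoic acid receptors.

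By role, against 24.6% over all regions, the Dll1− only share was highest for the 9 estrogen and progesterone target genes, 35.0% of 103 regions (26.4 to 44.6), and lowest for the 11 genes of the prolactin receptor kinase, its feedback and effectors, 16.1% of 168 (11.3 to 22.4). The target Greb1 had 0 Dll1+ only and 6 Dll1− only regions, Ccnd1, which encodes cyclin D1, 0 and 4, Tnfsf11, which encodes RANKL, 1 and 5, Id4 3 and 11, and Xbp1 1 and 4. Of the other targets in that list, Wnt4 had 2 and 4, Areg 1 and 1, Igfbp4 0 and 1, and Calca had no region. Stat3 had 0 and 3. Among glucocorticoid targets Fkbp5 had 0 and 5, Klf9 2 and 9, Sgk1 2 and 7, Dusp1 2 and 6, and Tsc22d3 3 and 6. Of the cofactors, Gata3 had 6 and 13, Nrip1 5 and 14, Ncoa3 2 and 6, and Ncoa1 2 and 5. Nr3c2, singled out after its values were seen, had 27 shared regions, of which 13 ranked higher in Dll1+ cells and 3 in Dll1− cells, with a median difference of 9.91 points, where 15.2% and 25.1% of all shared regions did and their median was -1.67.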

How the data were processed

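ATAC-seq had been run on 7 samples from 4 tumors. Per the study's methods, the authors processed all samples of a group jointly with the ATAC-seq pipeline of ENCODE and deposited its optimal peak set. The deposited fold enrichment is the ratio of a row's summit to its local background, and the deposited −log10 p-value is also that of the authors' peak caller. The aligner, caller, versions and thresholds are not given in the sources used here. The submitters' processing notes name mm10 and GRCm38; 0 rows passed a GRCm38 chromosome end, and 8.39% of Dll1+ and 7.67% of Dll1− summits lay within 100 bp of a coding TSS, against 0.440% and 0.460% after a shift of 10000 bp. The deposited scores and q-values were not used, and the authors' later comparison per sample was not analysed here.

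Rows were merged where they overlapped or touched. TSSs were those of all transcripts of protein-coding genes in the basic GENCODE M21 annotation, distances are signed by strand (negative upstream), and coordinates are 1-based. A promoter ran from 1000 bp before a TSS to 100 bp past it. Reads came from solving the fold, taken as (reads + 1)/(background + 1), together with the Poisson tail, which succeeded for every row except 1 Dll1− row within a relative tolerance of 0.001. The genome background of a list is its lowest recovered background. Depth behind the values is that number of reads per summit, since library totals were not analysed here. Scripts were tested on simulated data. Shares carry Wilson and read ratios exact binomial 95% intervals. Python 3.11.15, numpy 2.4.6, pandas 2.3.3, scipy 1.17.1, pysam 0.24.0, samtools 1.23.1 and the GRCm38.p6 genome were used.

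The members and gene lists were chosen with earlier results of these data known. The regions named were, per gene, the strongest at a TSS (within 1000 bp), the strongest shared, those with the largest rank difference in each direction and the strongest list-only ones; other regions were chosen after their values were seen. Of the 51 pathway genes, those with an excess of at least 3 list-only regions were named, except 2 that are not reported here. No test was run, because each group is 1 pooled list.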

Additional observations from a re-analysis of the deposited data

How the results depend on the processing

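Counts over the 6 genes moved with how regions were selected. Keeping only rows at or above the median fold of their list left 40 shared and 6 Dll1+ only regions, with 3 shared regions ranked higher in Dll1+ and 6 in Dll1− cells. Requiring that fold of list-only regions alone left 0 Dll1+ only and 5 Dll1− only. Within 50 kb of a TSS there were 46 shared and 7 Dll1− only regions, 6 ranked higher in Dll1+ cells, and 6 Dll1− only regions past the limit at the Dll1+ depth; the pathway genes then had 395 shared, 54 Dll1+ only and 120 Dll1− only. A difference of 20 points was reached by 6 regions in favor of Dll1+ and 8 of Dll1−. Percentiles among merged regions gave a median difference of -4.55 points and, for Esr1, of -0.15 in place of 2.34; using only the 5′ end of each gene gave 0.47 for Nr3c1 in place of -0.97. Within 50 bp of the summit the matches fell to 2 (STAT), 4 (FOX), 5 (RUNX), 6 (TEAD) and 2 (RBPJ). With the median −log10 p of the Dll1+ rows as the limit, chosen after seeing the data, 0 Dll1− only regions passed. Stricter selection counts fewer regions, and the median fold on all rows also turns a shared region into a list-only one where 1 list's rows fall below it. How far these account for the shifts was not tested. The other 42 values over the 6 genes or all pathway genes stayed within 1.5 times, equal-depth and equal-number lists and an overlap of at least 50% of both regions among them. No paired analysis was possible because each deposited list combines the tumors of its group, and for the same reason no sample could be left out in turn.

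List-only calls rest on few reads: the 10 Dll1+ only regions had 13 to 26 reads at the summit and the 17 Dll1− only regions 24 to 81.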
